A study of Homo sapiens with 96 samples.

Results

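The CCAAT/enhancer-binding protein genes CEBPA, CEBPB, CEBPD, CEBPG and CEBPZ were followed in A375 cells, an established human melanoma line that carries an activated BRAF kinase. These 5 genes are 5 of the 44659 entries of the count table, and they were taken by symbol. All 5 passed the filter on low counts, which left 14948 entries for testing. CEBPD was included because its mRNA was lower after transcription block in cells given MAPK inhibitors than in control cells, so the values behind that choice are given below as a description without a test. The study pretreated the cells for 18 h with DMSO, or with vemurafenib and cobimetinib at 500 nM each, which inhibit BRAF and MEK and are called MAPKi here. Each pretreatment was followed by 1 of 4 arms, namely vehicle, cycloheximide at 100 µg/ml (CHX, a block of translation elongation), triptolide at 25 µM (T, a block of transcription) or both inhibitors (TCHX). Harvest came at 0, 1, 3 or 5 h, and cytoplasmic RNA was counted by QuantSeq, which reads the 3′ end of polyadenylated transcripts. The 2 pretreatments, 4 arms and 4 times made 32 groups of 3 libraries, 96 in all. The labels name a single cell line and do not say whether replicates were separate cultures, so the p-values measure the spread between these libraries, which may be technical.

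CEBPA, CEBPB, CEBPD and CEBPG encode basic leucine zipper proteins that pair with each other or with related zippers and bind DNA near the genes of differentiation, acute-phase response and inflammation. CEBPA is best known from myeloid, liver and fat cells, CEBPB and CEBPD from the response to interleukin 6 and glucocorticoids, and CEBPG as a partner that lacks an activation domain and pairs with ATF4. CEBPZ shares the name and the CCAAT box but not the zipper, and belongs to the CBF/Mak21 family of nucleolar proteins used in assembly of the large ribosomal subunit.

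The bases just before the start sites of CEBPB and CEBPG are shown for the short motifs that lie there. Both genes were chosen because, in the fit with all replicates, the gap between cycloheximide and both inhibitors was larger after MAPKi than after DMSO. Each sequence is 250 bases of the coding strand that end at a RefSeq start site (build GRCh38.p14), in lower case with motif matches in capitals. The capitals mark CCAAT (on the other strand read as ATTGG), the core TGACG of a cAMP response element, and the TATA box TATAAA. In CEBPB, on the plus strand at chr20:50190580-50190829, they start at positions -245, -57 and -29 from the start site. In CEBPG, on the plus strand at chr19:33373459-33373708, both matches are ATTGG, at -85 and -24. RefSeq lists a second window for each gene. That of CEBPB (start 50190333) overlaps the window shown, and its CCAAT just after its start site, at 3, is the match at -245. That of CEBPG (start 33373863) holds none of these motifs.
CEBPB: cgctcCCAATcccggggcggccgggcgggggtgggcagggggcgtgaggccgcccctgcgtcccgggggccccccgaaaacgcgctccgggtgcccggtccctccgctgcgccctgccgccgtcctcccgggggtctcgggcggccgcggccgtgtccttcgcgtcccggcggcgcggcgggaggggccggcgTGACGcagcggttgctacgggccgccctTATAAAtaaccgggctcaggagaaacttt
CEBPG: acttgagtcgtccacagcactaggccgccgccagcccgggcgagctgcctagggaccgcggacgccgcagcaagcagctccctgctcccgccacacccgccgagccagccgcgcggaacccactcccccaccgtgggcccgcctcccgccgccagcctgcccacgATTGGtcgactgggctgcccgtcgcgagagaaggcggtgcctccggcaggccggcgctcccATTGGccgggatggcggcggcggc

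Such short motifs are frequent. Of 35116 RefSeq promoter windows of the same span plus 50 bases after the start site, searched on both strands, 34.6% held CCAAT, 24.6% TGACG and 11.5% TATAAA. The palindrome TTGCGCAA, which C/EBP dimers bind, was in 0.151% of the windows and in no window of CEBPA, CEBPB, CEBPG or CEBPZ. The AP-1 motif TGACTCA (4.95% of windows) was in none of these either. The CEBPA window held TATAAA at -30. The CEBPZ window, which faces another gene head to head, held TGACG at -174 and the ETS motif CCGGAA (17.2% of windows) at -58. A match describes the letters only.

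The pentamer ATTTA, the core of AU-rich elements of short-lived mRNAs, is shown because the values after transcription block bear on decay. In the 3′UTRs of the MANE Select transcripts (GENCODE v44 annotation of GRCh38), CEBPG held 9 copies in 2994 bases. CEBPA held 1 in 1404 bases, CEBPB 1 in 597 bases and CEBPZ 1 in 152 bases. No copy was in the 398 bases of CEBPD. Of 18780 3′UTRs, 68.3% held ATTTA at least once and 42.4% held 3 or more, with a median of 1.68 per kb among those of 100 bases or longer. The longer TATTTAT, which contains ATTTA, was in 32.1% of 3′UTRs and in none of these 5. The sites are given 5′ to 3′ on the strand of the gene, with ATTTA in capitals, for CEBPB (chr20:50192285-50192313, plus), CEBPA (chr19:33301053-33301081, minus), CEBPZ (chr2:37201612-37201632, minus) and the first and last of CEBPG (chr19:33380334-33380362 and chr19:33382323-33382351, plus).
CEBPB: gcccgtggtgttATTTAaagaagaaacgt
CEBPA: ggcaactctagtATTTAggataaccttgt
CEBPZ: aaaatagctctcATTTAtaaa
CEBPG, first: aatacaaataacATTTAggaagcaaatag
CEBPG, last: tgaaattctcaaATTTAcataaaaagtag

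Library totals ran from 2381351 to 12520154 counts with a median of 7143396. The melanocyte lineage genes SOX10, MITF and S100B were present in all 96 libraries, whereas MLANA was at 0 in 31 and TYR at 0 in 40 of them. The summed level of 9 melanoma markers was 2714 to 5251 CPM (reads of a gene relative to the scaled total of its library; median 3977) in the 48 DMSO libraries and 3818 to 7355 (median 5196) in the 48 MAPKi libraries. Of these 9 markers, 8 were tested in MAPKi against DMSO in vehicle. There 6 were called higher and 2 lower, against 33.6% and 31.1% of all genes. DCT had a mean of 48.2 CPM in DMSO and 1879 in MAPKi, while VIM had 2910 and 2067, and S100B 303.2 and 225. Marker genes of other lineages, 7 in all, summed to at most 1.97 CPM in any library, and ELANE, the neutrophil elastase gene, was at 0 in all 96. In such bulk samples, fewer cells with a transcript and less of it per cell cannot be told apart.

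Over the 12 vehicle libraries of each pretreatment, CEBPZ was by far the most abundant of the genes, with a median of 397.4 CPM (range 364.9 to 416.1) in DMSO and 198.4 (184.2 to 233.1) in MAPKi. QuantSeq counts transcript ends, so these levels are not divided by transcript length. CEBPD followed with 25.4 CPM (11.8 to 44.6) in DMSO and 21.3 (13.4 to 26.0) in MAPKi. CEBPB had 21.5 CPM (16.2 to 32.7) and 11.5 (4.84 to 19.8), and CEBPG had 12.2 (7.67 to 20.5) and 7.48 (3.95 to 10.3). The ranges of CEBPD and CEBPB overlapped in both pretreatments, as did those of CEBPB and CEBPG. CEBPA was lowest, at 1.61 CPM (0.836 to 2.71) in DMSO and 0.747 (0.104 to 2.52) in MAPKi, below the whole range of CEBPG in each. Its counts had a median of 8 over the 96 libraries and were 3 or fewer in 25 of them. The related CEBPE never exceeded 3 counts in a library.

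CEBPA and CEBPG lie near each other on chromosome 19, at chr19:33299934-33302534 on the minus strand and chr19:33373685-33382686 on the plus strand (GRCh38). CEBPB is at chr20:50190830-50192668 on the plus strand, CEBPD at chr8:47736913-47738164 on the minus strand, and CEBPZ at chr2:37201612-37231596 on the minus strand. CEBPA, CEBPB and CEBPD have 1 exon each in their MANE transcripts, CEBPG has 2 and CEBPZ has 16. CEBPZ overlaps CEBPZOS on the other strand over 14582 bases, of which 267 of the 3346 exonic bases of CEBPZ are exonic in both genes. The first part of CEBPB is overlapped by the antisense gene CEBPB-AS1, which had a median of 5 counts per library. The divergent CEBPA-DT had 3 counts or fewer in 84 of the 96 libraries. Whether counting used the strand is not stated, so counts of overlapping genes are uncertain there.

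MAPKi against DMSO in vehicle asks how much of each mRNA the inhibitors left. Averaged over 1, 3 and 5 h, all 5 genes were lower in MAPKi, where 31.1% of all tested genes were called lower. CEBPZ fell by 0.97 on the log2 scale (SE 0.05, adjusted p = 1.02e-30), CEBPB by 0.86 (SE 0.17, adjusted p = 4.78e-06) and CEBPG by 0.81 (SE 0.20, adjusted p = 0.000307). CEBPD fell by 0.54 (SE 0.13, adjusted p = 0.000139). CEBPA fell by 0.88 (SE 0.38, adjusted p = 0.0382), but this call was lost when any 1 replicate was left out, with adjusted p from 0.0738 without replicate 3 to 0.162 without replicate 1. The overlap gene CEBPZOS fell by 0.15 over the same libraries. The median of all tested genes was 0.06.

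For CEBPZ, the vehicle libraries at 5 h held 392.8, 364.9 and 400.5 CPM in DMSO and 218.7, 203.1 and 221 CPM in MAPKi. At 1 h they held 416.1, 394.1 and 371.8 CPM in DMSO and 188, 189.7 and 193.7 CPM in MAPKi. Every MAPKi library lay below every DMSO library at all 4 times, and the log2 difference stayed between -1.05 at 1 h and -0.85 at 5 h. For CEBPB, the libraries at 1 h held 21.2, 29.5 and 32.7 CPM in DMSO and 9.71, 6.14 and 12.7 CPM in MAPKi. At 5 h they held 19.2, 16.4 and 19.4 CPM in DMSO and 9.11, 18.0 and 13.98 CPM in MAPKi. The groups were apart at 1 h and overlapped at 5 h, with log2 differences of -1.51 (adjusted p = 9.03e-06) and -0.43 (adjusted p = 0.232). CEBPG had a difference of -1.34 at 1 h (adjusted p = 0.00108) and -0.30 at 5 h (adjusted p = 0.512).

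CEBPD took another course. At 1 h its libraries held 21.8, 14.8 and 21.2 CPM in DMSO and 19.3, 16.0 and 26.0 CPM in MAPKi, and the groups overlapped. At 3 h they held 38.6, 31.8 and 44.6 CPM in DMSO and 21.8, 18.3 and 25.2 CPM in MAPKi. By 5 h they held 41.8, 29.0 and 31.0 CPM in DMSO and 20.8, 13.4 and 19.0 CPM in MAPKi. At both later times every MAPKi library lay below every DMSO library. The log2 difference was 0.11 at 1 h (adjusted p = 0.731), -0.80 at 3 h (adjusted p = 0.00135) and -0.93 at 5 h (adjusted p = 0.000309). At 0 h, where the libraries are among those used to choose the gene, the values were 18.3, 11.8 and 15.7 CPM in DMSO and 22.3, 25.8 and 23.7 CPM in MAPKi, a difference of 0.65 in the other direction.

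By single time, the comparison of MAPKi with DMSO in vehicle called 3 of the 4 testable genes lower at 0 h (23.6% of all genes), all but CEBPA. The comparisons of the later times singly were added after seeing the data. At 1 h, 4 of 5 were lower (24% of all genes), with CEBPD the exception. The call of CEBPA at 1 h (-1.84, adjusted p = 0.0263) was lost without each replicate in turn, with adjusted p of 0.0553, 0.0926 and 0.169 without replicates 1, 2 and 3. At 3 h, 2 of 5 were lower, CEBPD and CEBPZ (23.3% of all genes). CEBPB and CEBPG had adjusted p = 0.0535 and 0.0503 there, and both were called with no filter on low counts (adjusted p = 0.0159 and 0.0248), CEBPG also with DESeq2 (adjusted p = 0.041) and with the replicate number as a block (adjusted p = 0.0495). At 5 h the same 2 genes were lower (23.5% of all genes).

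**Figure D1:**
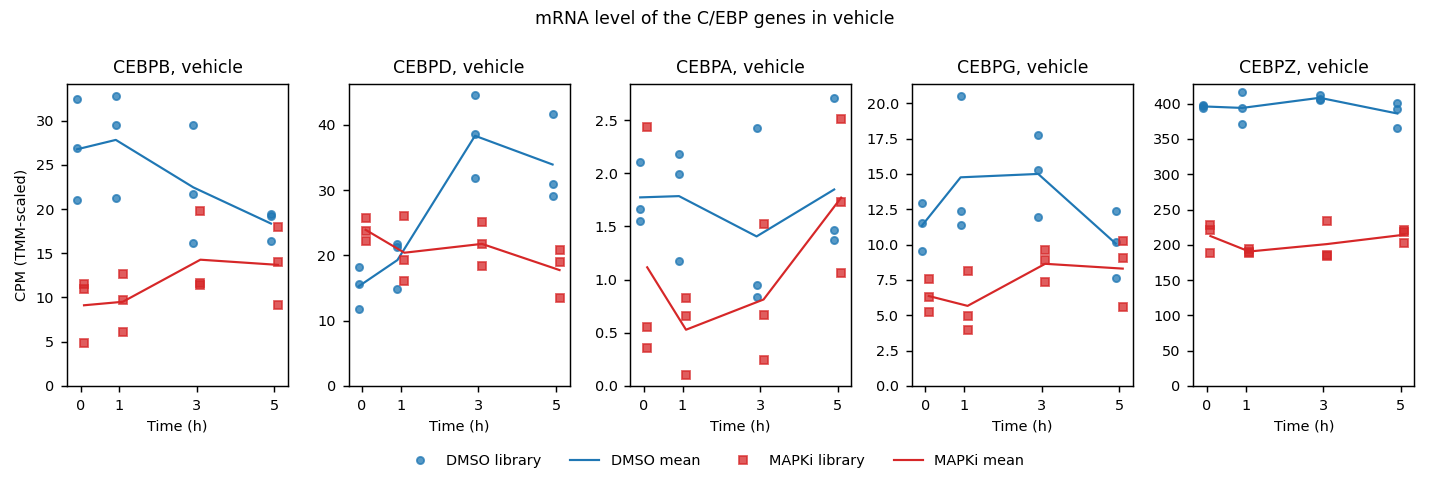
Level of each gene (CPM, TMM-scaled) against time in vehicle, 1 panel per gene. Blue circles are DMSO libraries, red squares MAPKi libraries and lines the means of 3. The CEBPD libraries of DMSO sit at 11.8 to 18.3 CPM at 0 h and at 29.0 to 41.8 CPM at 5 h, and the CEBPZ groups stay apart at all 4 times.

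Whether a gene moved with time in vehicle was tested from 5 h against 0 h for the 4 genes other than CEBPD. Of these 8 tests in both pretreatments, 0 were called with edgeR, 0 had an unadjusted p under 0.05 and 0 were called with DESeq2 (background 1.07% of genes in DMSO and 3.39% in MAPKi). CEBPD differed by 1.16 on the log2 scale between 5 h and 0 h in DMSO and by -0.43 in MAPKi, as a description. Against 1 h, whose libraries the choice did not use, and in a comparison added after seeing the data, CEBPD was 0.82 higher at 5 h in DMSO (SE 0.22, adjusted p = 0.0372). It was the 1 gene of the 5 called there, against 0.736% of all genes called higher. The call was lost without replicate 1 (adjusted p = 0.473) and without replicate 2 (adjusted p = 0.211). In MAPKi the difference of CEBPD was -0.22 (95% interval -0.66 to 0.22). Of the 5 genes in MAPKi, 0 were called with edgeR, 2 had an unadjusted p under 0.05 and 0 were called with DESeq2 (7.67% of all genes). These 2 were CEBPA, at 1.85 (adjusted p = 0.096), and CEBPZ, at 0.17 (adjusted p = 0.232).

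The change of CEBPD from 1 h to 5 h was 1.04 lower in MAPKi than in DMSO (SE 0.32, adjusted p = 0.0412), the single call among the 5 genes where 4.27% of all genes were called. This call was lost without each replicate in turn, with adjusted p of 0.26 without replicate 1, 0.272 without replicate 2 and 0.0984 without replicate 3, at differences of -1.08, -0.93 and -1.003. CEBPB and CEBPG had differences of the opposite sign, 1.08 (adjusted p = 0.11) and 1.03 (adjusted p = 0.225), which were not called.

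The 0 h libraries of the CHX and TCHX arms give another view of the starting levels from libraries that the choice of CEBPD did not use, again in a comparison added after seeing the data. CEBPZ fell by 1.08 on the log2 scale in MAPKi (adjusted p = 7.86e-28), CEBPG by 1.11 (adjusted p = 0.000122) and CEBPB by 1.04 (adjusted p = 7.68e-06), so that 3 of 5 genes were lower, as were 28.9% of all genes. CEBPA had -0.85 (adjusted p = 0.116). CEBPD was higher, 1 of 5 against 30.4% of all genes, by 0.39 (SE 0.16, adjusted p = 0.0313). Its libraries held 16.1, 15.9 and 21.2 CPM in the CHX arm and 14.8, 13.4 and 20.4 CPM in the TCHX arm of DMSO. In MAPKi they held 23.2, 21.8 and 25.3 CPM and 23.8, 18.7 and 21.4 CPM. The groups overlapped over both arms, and the call was lost without replicate 1 (adjusted p = 0.288) and replicate 2 (adjusted p = 0.0799).

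Cycloheximide against vehicle asks how the mRNAs respond when translation is stopped while transcription goes on. At 1 h, 0 of 10 tests (5 genes in each pretreatment) were called with edgeR and 0 with DESeq2, where 0.0803% of all genes were called in each pretreatment. A single test had an unadjusted p under 0.05, that of CEBPD in MAPKi. Its CHX libraries held 39.0, 29.7 and 29.5 CPM, above all 3 vehicle libraries, with a log2 difference of 0.66 (SE 0.22, adjusted p = 0.368). The difference between pretreatments at 1 h gave 0 calls among the 5 genes with edgeR and 0 with DESeq2, and 1 unadjusted p under 0.05, again CEBPD (0.0201% of all genes called).

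At 3 and 5 h, CEBPB, CEBPD and CEBPZ rose in both pretreatments, 3 of 5 genes in each, against 17.3% of all genes in DMSO and 15.9% in MAPKi. Of the 5 genes CEBPD rose most, by 1.36 on the log2 scale in DMSO (SE 0.15, adjusted p = 3.38e-12) and by 1.96 in MAPKi (SE 0.15, adjusted p = 3.16e-18). Its CHX libraries in DMSO held 74.2, 75.4 and 81.8 CPM at 3 h and 114.6, 95.4 and 122 CPM at 5 h. In MAPKi they held 60.6, 69.1 and 62.4 CPM at 3 h and 89.2, 99.2 and 87.0 CPM at 5 h. Every one of these lay above every vehicle library of the gene, and these 5 h libraries held its highest levels in the series.

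CEBPZ rose by 0.50 in DMSO (SE 0.06, adjusted p = 2.71e-11) and by 0.39 in MAPKi (SE 0.06, adjusted p = 9.03e-08) on the log2 scale. Its libraries at 5 h of CHX held 611.5, 601.5 and 612 CPM in DMSO and 308.6, 315.3 and 302 CPM in MAPKi, so that the pretreatments stayed apart. CEBPB rose by 0.78 in DMSO (adjusted p = 0.000917) and by 0.66 in MAPKi (adjusted p = 0.00611). Its libraries at 5 h of CHX held 26.4, 28.7 and 37.3 CPM in DMSO and 23.2, 33.2 and 25.7 CPM in MAPKi, and these overlapped. The CEBPB calls were lost without replicate 1 (adjusted p = 0.0507 in DMSO and 0.11 in MAPKi), and that in MAPKi also without replicate 2 (adjusted p = 0.0721). CEBPG had 0.17 and 0.36 (adjusted p = 0.658 and 0.27), and CEBPA 0.78 and 0.24 (adjusted p = 0.168 and 0.75).

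The response to cycloheximide at 3 and 5 h did not differ between pretreatments at the threshold for any of the 5 genes with edgeR, where 11% of all genes were called. CEBPD came nearest, with a response 0.60 larger in MAPKi (SE 0.21, 95% interval 0.19 to 1.01, adjusted p = 0.0513), the 1 gene with an unadjusted p under 0.05. It was the 1 gene called with DESeq2 (adjusted p = 0.0201), and it was also called with edgeR with no filter on low counts (adjusted p = 0.0196), with DESeq2 size factors (adjusted p = 0.0417), with the replicate number as a block (adjusted p = 0.0388) and without replicate 3 (adjusted p = 0.0474). With cycloheximide its mean level was lower in MAPKi than in DMSO (64.0 against 77.1 CPM at 3 h, 91.8 against 110.7 at 5 h). In vehicle it was lower too (21.8 against 38.35 CPM at 3 h, 17.75 against 33.9 at 5 h).

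**Figure D2:**
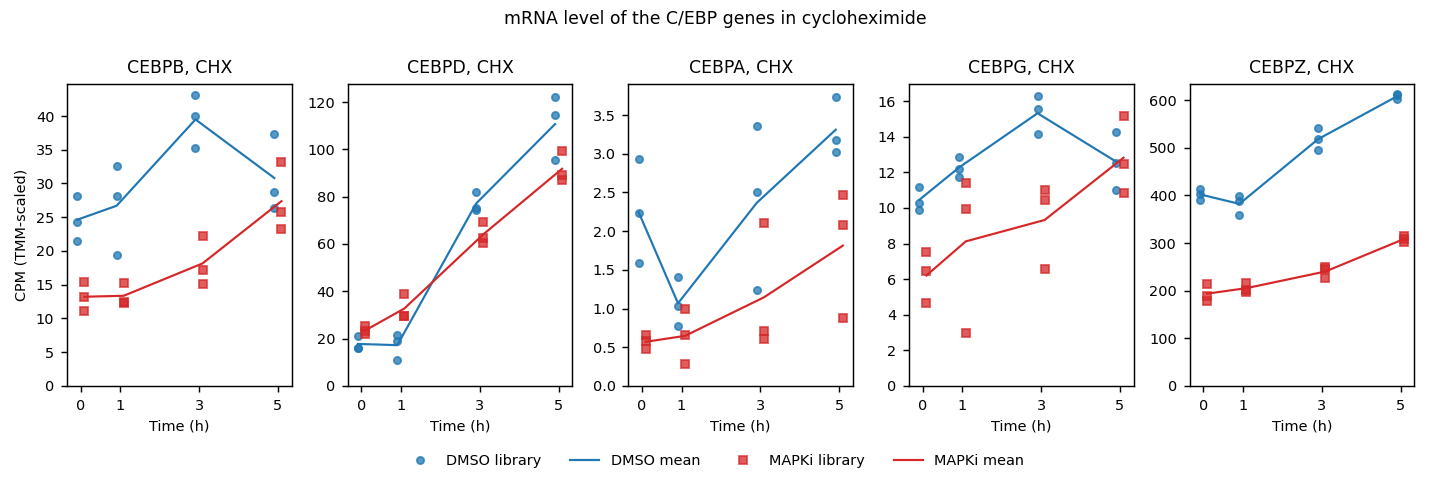
Level of each gene (CPM, TMM-scaled) against time with cycloheximide, with symbols as in the plot of vehicle libraries. CEBPD climbs in both pretreatments to 87.0 to 122 CPM at 5 h, and CEBPZ to 302 to 612 CPM with the pretreatments apart.

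Triptolide shows how fast each mRNA disappears without new synthesis. Since triptolide blocks transcription, its libraries were scaled by 36 genes taken as stable. Their share of the reads after 3 and 5 h of triptolide was at least 1.1 times that in vehicle at 0 h. That their amount did not fall is an assumption of this scaling and was not tested. The median of all genes was then -0.47 in DMSO and -0.59 in MAPKi for the mean of 3 and 5 h against vehicle at 0 h, with 195 genes higher and 7273 lower in DMSO. With TMM scaling the medians were -0.01 and 0.04, with 1762 higher and 3146 lower in DMSO, so members' changes are best read against these medians. At 1 h against vehicle, 0 of 10 tests were called with edgeR and 0 with DESeq2, where 0.702% of all genes were called in DMSO and 1% in MAPKi. CEBPD had the 1 unadjusted p under 0.05 in each pretreatment, with log2 differences of -0.53 and -0.60 (adjusted p = 0.533 and 0.416). The difference between pretreatments at 1 h gave 0 calls with edgeR and 0 with DESeq2, and 1 unadjusted p under 0.05, that of CEBPA (0.0669% of all genes called).

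At 3 and 5 h, CEBPA, CEBPB, CEBPG and CEBPZ all fell in both pretreatments, 4 of the 4 testable genes, against 48.7% of all genes in DMSO and 56.1% in MAPKi. CEBPB fell by 2.57 on the log2 scale in DMSO (SE 0.25, adjusted p = 5.98e-15) and by 2.77 in MAPKi (SE 0.31, adjusted p = 1.97e-12). At 5 h it had 9.48% ± 4.29 (SD, n = 3) of its level in vehicle at 0 h left in DMSO and 8.89% ± 0.525 (SD, n = 3) in MAPKi. The median gene had 64.4% ± 3.16 and 59.3% ± 1.44 left. CEBPB mRNA stood far below the median gene in both pretreatments, and its pretreatments did not differ at the threshold (difference -0.20, 95% interval -0.98 to 0.58).

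CEBPG fell by 1.47 in DMSO (adjusted p = 2.27e-05) and by 2.32 in MAPKi (adjusted p = 2.58e-08) on the log2 scale. At 5 h its libraries had 21.2% to 29.3% left in DMSO and 6.13% to 52.2% in MAPKi, so the MAPKi libraries spread over the whole DMSO range. Taken from the 0 h libraries of the triptolide arm in place of vehicle, the fall in MAPKi was 1.28 and the difference between pretreatments moved from -0.85 (adjusted p = 0.457) to -0.01. CEBPA fell by 1.70 in DMSO (adjusted p = 0.00842) and by 2.34 in MAPKi (adjusted p = 0.000909). These rest on 0 to 3 counts per library at 5 h, and the calls were lost without replicate 3 (adjusted p = 0.092 and 0.392) and with the triptolide arm at 0 h as the starting level (adjusted p = 0.142 and 0.147). With TMM scaling the CEBPA call in DMSO was lost as well (adjusted p = 0.0766).

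CEBPZ fell by 0.92 in DMSO (SE 0.09, adjusted p = 3.43e-15) and by 1.78 in MAPKi (SE 0.09, adjusted p = 2.46e-30) on the log2 scale. With TMM scaling it fell by 0.45 and 1.16. In counts scaled by the stable genes, its libraries held 3099, 2926 and 2791 in vehicle at 0 h of DMSO and 1442, 1385 and 1112 after 5 h of triptolide. In MAPKi they held 1637, 1400 and 1644 at the start and 309.5, 343.8 and 365.1 after 5 h. This left 44.7% ± 6.003 (SD, n = 3) in DMSO and 21.8% ± 1.80 (SD, n = 3) in MAPKi, with no overlap. The difference between pretreatments was -0.87 (SE 0.13, adjusted p = 1.96e-06), 1 call among the 4 testable genes, against 3.17% of all genes. With the triptolide arm at 0 h as the starting level it was -0.68 (adjusted p = 0.000259). The overlapping CEBPZOS had a difference of -0.12 (adjusted p = 0.778).

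CEBPD, chosen on these libraries, held 142.5, 87.0 and 111.2 scaled counts in vehicle at 0 h of DMSO, and 165.5, 191.1 and 171.1 in MAPKi. After 5 h of triptolide it held 11.8, 20.5 and 16.9 in DMSO and 7.15, 1.73 and 5.29 in MAPKi, the last from 10, 3 and 5 raw counts. This left 14.4% ± 3.83 (SD, n = 3) in DMSO and 2.69% ± 1.57 (SD, n = 3) in MAPKi, and the groups did not overlap. At 3 h, 34.7% ± 15.2 and 6.55% ± 6.32 were left. The log2 changes over 3 and 5 h were -2.12 in DMSO and -4.68 in MAPKi, a difference of -2.56. Without replicate 2 the difference was -1.64 and without replicate 3 it was -3.25. At 5 h in MAPKi this mean was the lowest of the 5 genes.

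**Figure D3:**
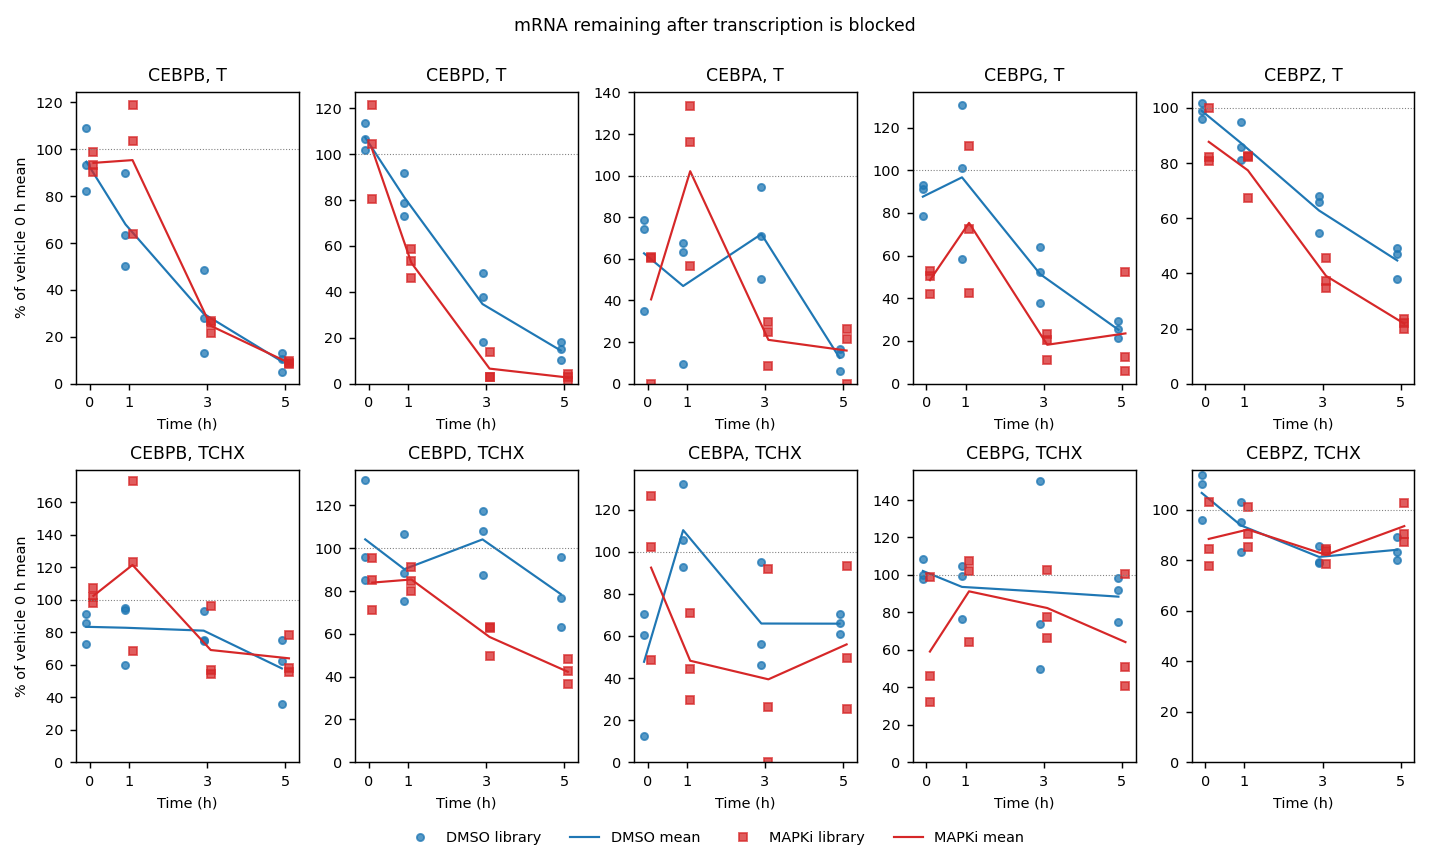
Percent of the mean level in vehicle at 0 h that was left in the triptolide arm (T) and with both inhibitors (TCHX), against time, for each gene, from counts scaled by the stable genes. Blue circles are DMSO libraries, red squares MAPKi libraries, lines the means of 3, and the dotted line marks 100%. At 5 h of T, CEBPD had 14.4% left in DMSO and 2.69% in MAPKi, and CEBPZ 44.7% and 21.8%.

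Both inhibitors against triptolide alone ask how much more mRNA is left when translation is stopped too. CEBPB, CEBPG and CEBPZ were higher with both inhibitors at 3 and 5 h in each pretreatment, 3 of the 4 testable genes, against 28.4% of all genes in DMSO and 41.4% in MAPKi. CEBPB was higher by 2.03 on the log2 scale in DMSO (adjusted p = 1.38e-12) and by 2.17 in MAPKi (adjusted p = 3.37e-10). CEBPG was higher by 1.33 (adjusted p = 1.13e-05) and 1.81 (adjusted p = 6.78e-07). CEBPZ was higher by 0.64 (adjusted p = 1.01e-11) and 1.59 (adjusted p = 7.5e-31). The median gene was higher by 0.23 and 0.34. CEBPA had 1.05 (adjusted p = 0.101) and 1.30 (adjusted p = 0.0588).

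The gain of CEBPZ was 0.95 larger in MAPKi (SE 0.11, adjusted p = 1.75e-10), 1 of 4 genes called, against 7.11% of all genes. At 5 h with both inhibitors its libraries held 2619, 2348 and 2449 scaled counts in DMSO and 1362, 1412 and 1603 in MAPKi. This is 84.1% ± 4.66 (SD, n = 3) and 93.5% ± 8.13 (SD, n = 3) of the level in vehicle at 0 h, where the groups overlapped in percent. Against the 0 h libraries of the same arm it is 78.9% ± 4.37 (SD, n = 3) and 105.7% ± 9.23 (SD, n = 3), without overlap. The gain of CEBPZOS, whose exons share bases with CEBPZ, was also larger in MAPKi, by 0.38 (adjusted p = 0.01). For CEBPD, as a description, the gain was 2.00 in DMSO and 3.67 in MAPKi. With both inhibitors 78.6% ± 16.4 (SD, n = 3) of CEBPD was left at 5 h in DMSO and 42.3% ± 5.83 (SD, n = 3) in MAPKi, without overlap.

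The index of translation-dependent decay (TDD) puts this gain on a linear scale, as the scaled count with both inhibitors less that with triptolide, divided by the vehicle count at 0 h of the same replicate number, averaged over 3 and 5 h. CEBPZ had 0.293 ± 0.0960 (SD, n = 3) in DMSO and 0.578 ± 0.0601 (SD, n = 3) in MAPKi. All 3 MAPKi values (0.53 to 0.645) lay above the DMSO values (0.23 to 0.403). The difference of 0.285 had an unadjusted p of 0.00103 and an adjusted p = 0.157 with limma. CEBPB had 0.513 and 0.544, and CEBPG 0.515 and 0.530, each with overlapping replicates. Of these 3 genes 0 were called, as were 0 of 11422 genes (0%), while 1 of the 3 had an unadjusted p under 0.05. CEBPD had 0.701 ± 0.225 in DMSO and 0.459 ± 0.0249 in MAPKi, given as a description, and CEBPA had too few counts for the index to be tested.

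Both inhibitors against cycloheximide alone ask how much lower each mRNA stands without new transcription while translation is stopped. These libraries did not enter the choice of CEBPD. A rise with cycloheximide alone counts in this difference as much as a fall with both inhibitors. All 5 genes were lower at 3 and 5 h in each pretreatment, against 42.8% of all genes in DMSO and 55.5% in MAPKi. The median of all genes was -0.34 in DMSO and -0.52 in MAPKi, and 0.05 in each with TMM scaling. CEBPD was lower by 2.88 on the log2 scale in DMSO (SE 0.17, adjusted p = 1.24e-26) and by 3.01 in MAPKi (SE 0.17, adjusted p = 3.07e-27). At 5 h it held 991.1, 794 and 1057 scaled counts with cycloheximide and 87.2, 108.9 and 71.8 with both inhibitors in DMSO. In MAPKi it held 949.3, 946.3 and 845.5 with cycloheximide and 74.7, 64.0 and 84.5 with both. The groups were far apart in each pretreatment, and the difference between pretreatments was -0.13 (95% interval -0.57 to 0.32, adjusted p = 0.818).

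In this comparison CEBPB fell by 1.07 in DMSO (adjusted p = 2.32e-06) and fell by 2.18 in MAPKi (adjusted p = 1.02e-14). With TMM scaling it fell by 0.68 in DMSO. Its libraries at 5 h in DMSO held 228.5, 239.1 and 323.1 scaled counts with cycloheximide and 148.4, 122.7 and 70.6 with both inhibitors. In MAPKi they held 247.3, 316.6 and 250 with cycloheximide and 52.3, 37.2 and 38.9 with both. The difference between pretreatments was -1.11 (SE 0.29, adjusted p = 0.00454). It was lost without replicate 1 (-1.09, adjusted p = 0.0979) and without replicate 2 (-0.70, adjusted p = 0.219). With cycloheximide, mean scaled counts of CEBPB rose between 0 and 5 h from 171.9 to 263.6 in DMSO and 92.2 to 271.3 in MAPKi. Relative to 0 h this rise was smaller in TMM-scaled CPM, so its size depends on the scaling. The DMSO means were 24.62 CPM at 0 h and 30.81 CPM at 5 h, and the MAPKi means were 13.21 and 27.38 CPM. With both inhibitors from 0 h to 3 and 5 h, the difference between pretreatments was -0.34 (adjusted p = 0.9).

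CEBPG was lower by 0.57 in DMSO (adjusted p = 0.0405) and by 1.60 in MAPKi (adjusted p = 1.06e-07), the latter by 1.03 with TMM scaling. The call in DMSO was lost with TMM scaling (-0.17, adjusted p = 0.587), with total counts (-0.21, adjusted p = 0.519), with stable genes taken at 3 or 5 h (adjusted p = 0.0545) and without replicate 1 (adjusted p = 0.139) or replicate 3 (-0.37, adjusted p = 0.243). The difference between pretreatments was -1.02 (SE 0.35, adjusted p = 0.0394). It was lost without replicate 1 (adjusted p = 0.253) and replicate 2 (-0.67, adjusted p = 0.41), with TMM scaling (adjusted p = 0.0894) and with mitochondrial rRNA scaling (adjusted p = 0.155). CEBPB and CEBPG were the 2 of 5 genes called for this difference, against 11.8% of all genes, whose median was -0.12. With cycloheximide, mean scaled counts of CEBPG rose between 0 and 5 h from 73.0 to 107.6 in DMSO and 43.3 to 127.5 in MAPKi. This rise too was smaller in TMM-scaled CPM. There the DMSO means were 10.45 CPM at 0 h and 12.59 CPM at 5 h, and the MAPKi means were 6.20 and 12.82 CPM. With both inhibitors from 0 h to 3 and 5 h, CEBPG had 0.20 in MAPKi (adjusted p = 0.829). The difference between pretreatments there was 0.36 (adjusted p = 0.927). CEBPZ was lower by 0.92 and 0.86, and with TMM scaling by 0.52 and 0.29. Its difference of 0.06 was 0.23 with TMM scaling (adjusted p = 0.0453). CEBPA was lower by 1.43 and 1.70, the latter by 1.12 with TMM scaling, and both calls were lost without replicate 3 (adjusted p = 0.0722 and 0.115).

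With both inhibitors from 0 h to 3 and 5 h, in a comparison added after seeing the data, 1 gene was called in each pretreatment. In DMSO, 1 of 5 genes was lower, against 19.7% of all genes. This was CEBPZ, which fell by 0.37 (SE 0.09, adjusted p = 0.00106), a call lost with TMM (-0.14, adjusted p = 0.253), total count (-0.20, adjusted p = 0.0677) and mitochondrial rRNA scaling (-0.27, adjusted p = 0.109). In MAPKi, 1 of 5 was lower, against 10.9% of all genes. This was CEBPD, which fell by 0.76 (SE 0.21, adjusted p = 0.00635), a call lost without replicate 1 (adjusted p = 0.227). Its scaled counts were 167.7, 125.3 and 150 at 0 h and 74.7, 64.0 and 84.5 at 5 h. In DMSO, CEBPD had -0.22 (adjusted p = 0.528). CEBPB had -0.62 in MAPKi (adjusted p = 0.151), which was called with mitochondrial rRNA scaling (-0.88, adjusted p = 0.0212). CEBPA had -0.88 (adjusted p = 0.438). The difference of CEBPD between pretreatments was -0.54 (95% interval -1.12 to 0.04, adjusted p = 0.66). For that difference 0 of 5 genes were called with edgeR and 0 with DESeq2, and 1 had an unadjusted p under 0.05 (0.334% of all genes called). That 1 gene was CEBPZ, with a difference of the opposite sign, 0.35 (SE 0.13, adjusted p = 0.337).

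**Figure D4:**
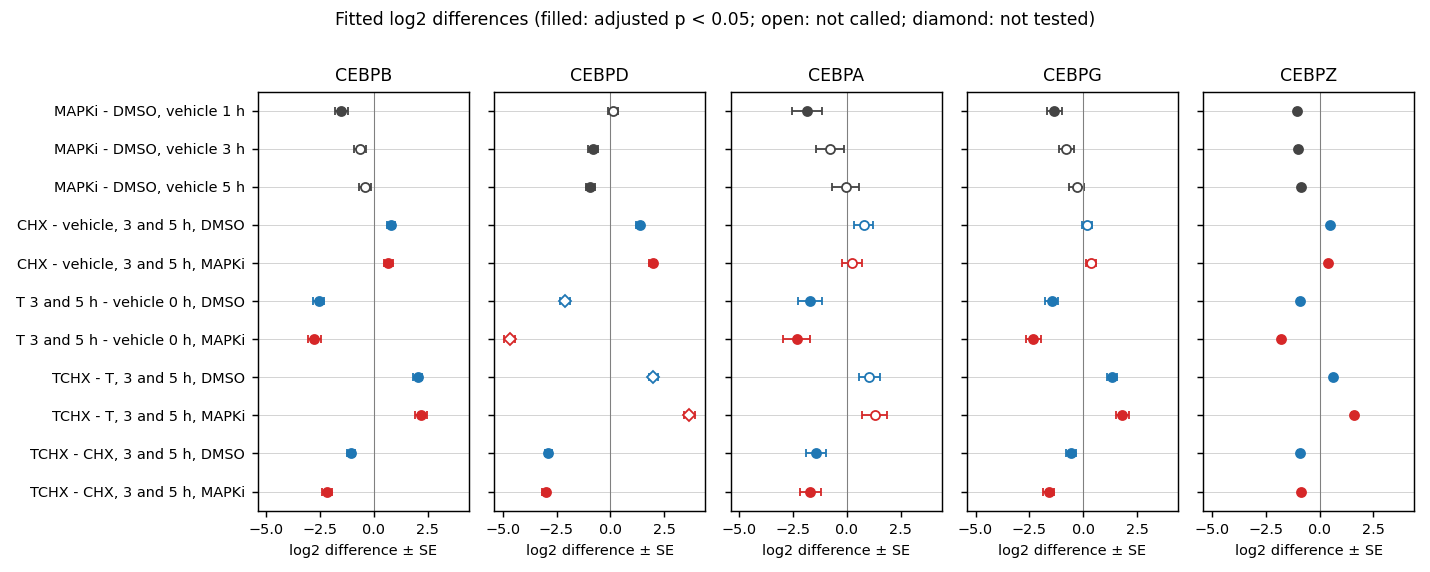
Log2 differences with their standard errors for each gene and comparison. Comparisons within DMSO are in blue, those within MAPKi in red, and MAPKi against DMSO in vehicle in dark grey. Filled symbols passed an adjusted p of 0.05, open symbols did not and diamonds mark CEBPD values given without a test. CEBPD has the largest cycloheximide responses (1.36 in DMSO and 1.96 in MAPKi). For both inhibitors against cycloheximide, CEBPB has -1.07 in DMSO and -2.18 in MAPKi, and CEBPG -0.57 and -1.60.

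Genes that the family works with were taken from lists, and are described by counts. Of 12 zipper partners, 10 were tested, and in MAPKi against DMSO in vehicle 5 rose and 3 fell, where 33.6% of all genes were higher and 31.1% lower. Their median was 0.29 against 0.06 for all genes. ATF3, a stress-induced zipper protein, rose by 2.51 on the log2 scale (adjusted p = 3.01e-31), and DBP, a clock-output zipper protein, by 1.67 (adjusted p = 1.5e-12). NFIL3, which represses through the same sites as DBP, rose by 1.55 (adjusted p = 1.4e-15). BATF3, a zipper protein of lymphoid and myeloid cells, fell by 2.23 (adjusted p = 7.76e-21). With cycloheximide at 3 and 5 h, 4 of the 10 rose in DMSO and 5 in MAPKi, against 17.3% and 15.9% of all genes. ATF3 rose by 5.27 in DMSO and 1.79 in MAPKi, DDIT3, whose protein CHOP pairs with C/EBP zippers and blunts their binding, by 3.05 and 1.82, and ATF4, the CEBPG partner, by 1.56 and 1.31. After 1 h of triptolide 2 of the 10 fell in DMSO and 3 in MAPKi, against 0.676% and 0.963% of all genes. Among them were ATF3, which fell by 1.47 and 0.93, and DDIT3, which fell by 0.86 and 1.70.

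Of 15 genes upstream of the family, all tested, 6 rose and 5 fell in MAPKi in vehicle, near the 33.6% and 31.1% of all genes, and the median was -0.03 against 0.06. TRIB1 and TRIB2, whose proteins bring C/EBP alpha to a ubiquitin ligase, fell by 2.37 and 2.28 (adjusted p = 5.22e-28 and 4.14e-35). NR3C1, the glucocorticoid receptor, rose by 1.01 (adjusted p = 1.55e-31) and IL6R, a chain of the interleukin 6 receptor, by 0.72 (adjusted p = 2.07e-19). IL6ST, the signalling chain of that receptor, had 0.03 (adjusted p = 0.835), and STAT3, the factor it activates, rose by 0.27 (adjusted p = 0.00534). TRIB1 was the 1 gene of the list to fall within 1 h of triptolide in MAPKi, by 2.66 (adjusted p = 9.03e-10), where 0.963% of all genes fell.

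Of 19 known target genes only 7 passed the filter, 2 of which rose and 4 fell in MAPKi, against 33.6% and 31.1% of all genes, with a median of -0.68 against 0.06. CXCL8, the interleukin 8 gene, fell by 3.44 (adjusted p = 1.8e-06), and PTX3, an acute-phase pentraxin, by 1.66 (adjusted p = 2.32e-05). SOD2, the mitochondrial superoxide dismutase, rose by 0.56 (adjusted p = 1.32e-05) and TNFAIP6, an inflammation-induced hyaluronan-binding protein, by 0.73 (adjusted p = 0.00191). The MAPKi level of CXCL8 rests on 7 counts in all over the 9 vehicle libraries, 4 of them at 0, so its fold changes against that level are imprecise. With cycloheximide at 3 and 5 h, 4 of the 7 rose and 0 fell in DMSO, where 17.3% of all genes were higher and 14.9% lower. In MAPKi 3 rose and 1 fell, against 15.9% and 14%. CXCL8 rose by 1.75 in DMSO (adjusted p = 0.00743) and by 3.77 in MAPKi (adjusted p = 8.97e-06), the latter from 6 counts over 6 vehicle libraries to 111 over 6 CHX libraries. PTGS2, the inducible cyclooxygenase, rose by 2.76 in DMSO (adjusted p = 1.24e-07) and had 0.24 in MAPKi (adjusted p = 0.726). SOD2 had -0.09 in DMSO (adjusted p = 0.698) and fell by 0.53 in MAPKi (adjusted p = 0.00117).

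CEBPZ was set beside 11 nucleolar genes of ribosome assembly, 10 of which were tested. All 10 fell in MAPKi in vehicle, where 31.1% of all genes were lower, with a median of -1.25 against 0.06 for all genes and -0.97 for CEBPZ. The box C/D proteins NOP56 and NOP58 fell by 1.91 and 1.44, NOP2, an rRNA methyltransferase, by 1.37, and NOP14, a small-subunit assembly factor, by 1.17. After triptolide at 3 and 5 h, 8 of the 10 fell in each pretreatment, where 48.7% of all genes were lower in DMSO and 56.1% in MAPKi, with medians of -0.38 in DMSO and -0.53 in MAPKi, against -0.92 and -1.78 for CEBPZ and -0.47 and -0.59 for all genes. With cycloheximide, 4 rose and 2 fell in DMSO, against 17.3% and 14.9% of all genes, and 6 rose and 0 fell in MAPKi, against 15.9% and 14%. The medians of the 10 were -0.10 and 0.31.

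Over the means of the 32 groups, which share libraries and depth, the log2 level of CEBPZ went most closely with POLR1F, a subunit of RNA polymerase I (Pearson's r = 0.991), and with NIFK and DNTTIP2 (0.988 each). CEBPD went with SIRT1 (0.955), ZNF24 (0.951) and RHOB (0.95), and CEBPB with CHD1 (0.973), NXT1 and RIPK4 (0.971 each). For CEBPG these were ADO (0.952), EED (0.944) and DNAAF2 (0.937), and for the low CEBPA they were RAPH1 and ASB6 (0.823 each) and DYRK3 (0.82). Within the family, CEBPB and CEBPG went most closely together (0.922) and CEBPD and CEBPZ least (0.553). These values describe likeness over the groups and are not tests.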

How the data were processed

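QuantSeq libraries of cytoplasmic RNA were analysed from 96 samples, 3 for each of 32 groups taken from the labels. The deposited table holds raw counts made by the authors, in which each value is a number of reads assigned to a gene and no scaling was applied. The submitters' processing notes name fastp 0.20.1, HISAT2 2.2.1, HTSeq 0.13.5 and GRCh38.p13. Strand setting is not given in the sources used here, and no molecular identifiers were described, so floors and spreads cover counting error of reads, not of molecules.

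All fits ran on the whole table in R 4.3.3. edgeR 4.0.16 (glmQLFit, glmQLFTest, two-sided) was fitted to all 96 libraries with 1 mean per group after filterByExpr. P-values were adjusted by Benjamini-Hochberg over 14948 genes and called under 0.05. Libraries were scaled by TMM for vehicle and cycloheximide comparisons, and for comparisons with triptolide by DESeq2 size factors over 36 stable genes. These had over 0.2 CPM in vehicle at 0 h and at least 1.1 times that level after 3 and 5 h of triptolide in every replicate of both pretreatments. The TDD index was tested with limma 3.58.1 over genes with a mean scaled count of at least 10 in vehicle at 0 h, with time and replicate as terms. Scripts were tested on simulated data. Alternatives were TMM, total-count, mitochondrial rRNA and DESeq2 scaling, DESeq2 1.42.0, no filter, a replicate block, other starting levels and leaving out each replicate.

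The members and gene lists were chosen with earlier results of these data known. The genes named were the 5 members, their overlapping neighbours, the 3 genes most like each member, and in each list the 4 with the lowest p in MAPKi against DMSO, with further list members added for their roles after their values were seen. CEBPD was given no test where the libraries that chose it enter. Coordinates and 3′UTRs came from the GENCODE annotation of GRCh38, promoters from RefSeq, matched by symbol for 4 of the 5 genes.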

Additional observations from a re-analysis of the deposited data

Results flagged for a closer look

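In 5 results the response differed between MAPKi and DMSO by a test of the difference itself (edgeR interaction terms, log2 scale). CEBPZ differed after triptolide by -0.87 (adjusted p = 1.96e-06), and in the gain from adding cycloheximide to triptolide by 0.95 (adjusted p = 1.75e-10). Over the other settings these 2 values ran from -1.14 to -0.68 and from 0.79 to 1.104, with adjusted p of at most 0.0126 and 0.000115. The level with both inhibitors against cycloheximide alone differed by -1.11 for CEBPB (adjusted p = 0.00454) and by -1.02 for CEBPG (adjusted p = 0.0394). Neither of these calls held without replicate 1 or without replicate 2. Measured from 0 h with both inhibitors, the differences were -0.34 for CEBPB (adjusted p = 0.9) and 0.36 for CEBPG (adjusted p = 0.927). The change of CEBPD in vehicle from 1 h to 5 h, in a comparison added after seeing the data, differed by -1.04 (adjusted p = 0.0412), and the call was lost without any 1 replicate. These comparisons share libraries, so they are not independent of each other.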

How the results depend on the processing

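Counts of genes called kept within 1.5 times of the values given in 158 of 177 repeats under other settings and moved in 19. The 5 genes lower in MAPKi in vehicle became 3 of 4 at 0 h alone, where CEBPD had 0.65, the reverse of its sign at later times. The difference in the cycloheximide response went from 0 calls to 1, CEBPD, with no filter on low counts, with the DESeq2 test, with DESeq2 size factors and in leaving out single replicates (0 to 1). The gap between both inhibitors and cycloheximide alone differed for 2 genes, and for 1 with mitochondrial rRNA scaling. When single replicates were left out it differed for 0 to 2. With both inhibitors against 0 h (added after seeing the data), 2 calls became 1 with TMM scaling and 1 with total counts, and 1 to 2 without single replicates. In vehicle at 5 h against 1 h (added), the 1 difference between pretreatments became 2 with no filter, and 0 when each replicate was left out, and the 1 call within pretreatments was 0 to 1. At 3 h in vehicle (added) 2 calls became 4 with no filter. Over all settings, the adjusted p of the CEBPA difference in vehicle ran from 0.0226 to 0.438, of the CEBPD difference in the cycloheximide response from 0.0196 to 0.276, and of the differences of CEBPB and CEBPG under cycloheximide from 5.24e-05 to 0.219 and from 0.00732 to 0.41. Where a setting changed these counts, the cause was not tested.

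Whether the replicate numbers pair the libraries was not settled. The labels of each replicate number share a prefix over the groups. Deviations of DMSO and MAPKi libraries of the same arm, time and number correlated between -0.089 and 0.204. These were 48 pairs, 9 of them over 0.1. Deviations from means of 3 libraries cannot exclude a shared culture or run. With the replicate block, the cycloheximide difference had 1 call in place of 0, CEBPG was called lower at 3 h in vehicle, and the block moved no other count of calls by over 1.5 times. Stable genes rising in both triptolide arms could not be used as planned, since 1 gene qualified. CEBPA, with a median of 8 counts, limits every statement on it.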
